A study of Homo sapiens with 11 samples.

Results

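miR-520c and miR-372 were compared directly on a single slide in PC-3, an established human line from prostate cancer. The comparison uses 4 of the 11 Agilent 1-colour whole human genome arrays of the series, namely miR-520c sample 12, miR-372 sample 10, mock sample 9 and mock sample 11, which together form set 3. Cells received a synthetic duplex of miR-520c, a synthetic duplex of miR-372, or, in the mock arrays, the transfection reagent without any duplex, and RNA was taken after 24 h. Each array carried 150 ng of RNA mixed from 4 transfections, so how far separate transfections lay apart cannot be seen, and each miRNA has 1 array in this set. A mock array does not show what a duplex of unrelated sequence does, and whether the mock arrays came from separate mixes is not given in the sources used here. The arrays are unreplicated per miRNA, so differences are given as values, and the difference between the mock arrays shows how far arrays of one condition lay apart.

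miR-372 and miR-520c belong to a family of miRNAs with a common seed that is abundant in embryonic stem cells and largely silent in adult tissue. A miRNA guides the silencing complex to messenger RNAs that pair with its seed, the short stretch near its 5′ end, and those messages are then degraded or translated less. Cells also answer RNA duplexes through innate immunity. The cytosolic sensors MDA5 and RIG-I and the endosomal receptor TLR3 recognise double-stranded RNA and induce interferon beta. Interferon then acts through a factor that includes STAT2 and IRF9 on a large set of interferon-stimulated genes, many of which block viral replication.

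The mature strands are shown because the seed is what both duplexes have in common. Sequences are RefSeq's on GRCh38.p14, written 5′ to 3′ with the seed, bases 2 to 8, in capitals.
miR-372-3p: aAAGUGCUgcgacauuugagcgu
miR-520c-3p: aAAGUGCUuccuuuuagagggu
Both come from the plus strand of chromosome 19, at chr19:53787931-53787953 and chr19:53707506-53707527. They share their first 8 bases, seed included, and pair with the same site, AGCACUU. Beyond these bases, 3 of the 14 positions that both strands have hold the same base.

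Values are the log2 values of the authors' normalized table, and a difference of at least 1 on this scale, a doubling, is called a difference here. All 27191 probes that the table holds for set 3 stood well above background on 1 or more of these arrays, and 27181 were so on all 4. miR-520c minus miR-372 was at least 1 higher for 462 probes (1.7%) and at least 1 lower for 383 probes (1.41%). The split moved with the processing, as scanner signals with normexp background correction and quantile normalization gave 238 higher and 108 lower. Mock sample 11 minus mock sample 9, with no change of duplex, was at least 1 higher for 267 probes (0.982%) and at least 1 lower for 341 probes (1.25%). The difference between the miRNAs had an SD of 0.44 across probes, against 0.39 between the mock arrays. Although these differences share no array, they correlated across probes with r = 0.60. Probes are not independent replicates, and sample 9 and sample 10, like sample 11 and sample 12, have neighbouring numbers in the labels. What the neighbouring samples had in common was not tested.

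**Figure D1:**
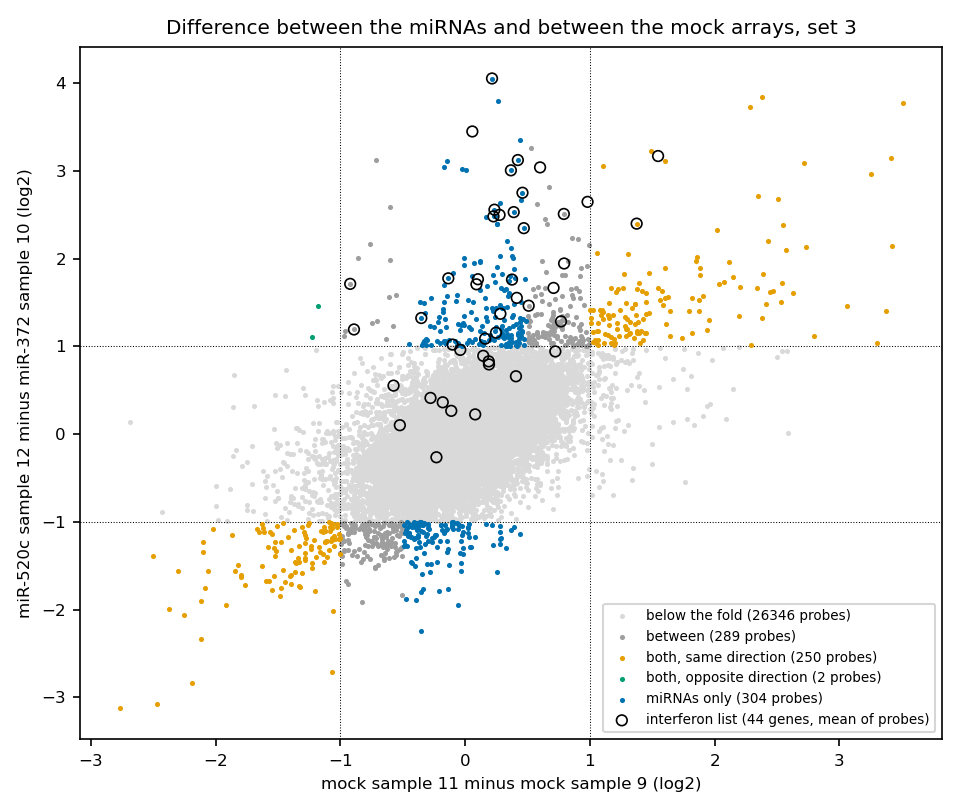
Each point is a probe, with the difference between mock sample 11 and mock sample 9 on the horizontal axis and that between miR-520c and miR-372 on the vertical axis, both on the log2 scale; dotted lines mark 1 and -1, and open circles are the 44 interferon-list genes. Most of the 250 orange probes lie along the diagonal, the 304 blue ones differ between the miRNAs with under 0.5 between the mock arrays, and nearly all circles lie above 0.

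To separate differences between the miRNAs from those that the mock arrays also show, probes were sorted by both values. A probe was taken as differing between the miRNAs only where the mock arrays lay within 0.5 of each other. This held for 176 probes that were higher (0.647%) and 128 that were lower (0.471%) under miR-520c. After normexp and quantile normalization, it held for 110 and 31. The mock difference of the 176 and 128 probes still leaned the same way, with medians of 0.23 and -0.28 against 0.01 over all probes. Another 250 probes (0.919%) differed by at least 1 in both comparisons and in the same direction, 137 of them higher and 113 lower. Only 2 probes (0.00736%) differed by at least 1 in opposite directions, and 289 (1.06%) lay between these classes. The limits were sharp cuts through a continuum, since the values nearest to them were 1.00 on either side for the miRNA difference, and 0.49 and 0.50 for the mock difference.

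The 304 probes (1.12%) that differed between the miRNAs only were then placed beside the mock range, with a margin of 0.5. Among the 176 higher ones, miR-520c alone lay outside it for 97, always above, and miR-372 alone for 38, always below. For 20 the miRNAs lay on opposite sides, for 13 on the same side, and for 8 neither left the range by that margin. Among the 128 lower ones, miR-520c alone lay below for 93 and miR-372 alone lay above for 18. miR-520c thus accounted for most of the placements, as it did across all 27191 probes, where it alone lay outside for 4279 and miR-372 alone for 609. The array of miR-520c correlated with mock sample 9 and mock sample 11 by r = 0.979 and r = 0.986, and that of miR-372 by r = 0.992 and r = 0.990.

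Interferon-stimulated genes were higher under miR-520c than under miR-372 as a group. Of 51 genes on this list, 44 had values, and miR-520c lay at least 1 above miR-372 in 31 of them and at least 1 below in 0, where 1.76% of all 13546 genes were higher and 1.14% lower. The median difference was 1.61, against -0.01 over all genes. Between the mock arrays the same 44 genes had a median of 0.23, with 2 genes at least 1 higher and 0 lower, where 1.11% and 0.864% of all genes were so. Of the 31 genes, 20 differed between the miRNAs only, 2 differed in both comparisons and 9 lay between. Relative to the mean of the mock arrays, miR-372 had a median of -1.06 over the list and miR-520c one of 0.47. The interferon list held 62 of all 27191 probes, or 0.228%, and 23 of the 60 probes that were at least 2 higher under miR-520c, or 38.3%. In such bulk samples, fewer responding cells and less RNA per cell cannot be told apart.

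The miRNAs lay on opposite sides of the mock arrays for part of the list. miR-372 was at least 0.5 below both mock arrays in 33 of the 44 genes, as it was in 3.43% of all genes, and above them in 0, where 3.01% of all genes were above. miR-520c was at least 0.5 above both in 15 genes and below both in 2, against 7.91% and 9.4% of all genes. In 10 genes miR-520c was above and miR-372 below, a placement that 18 of all 13546 genes had (0.133%). Among probes, 24 (0.0883%) had this placement and 2 (0.00736%) had the opposite one.

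**Figure D2:**
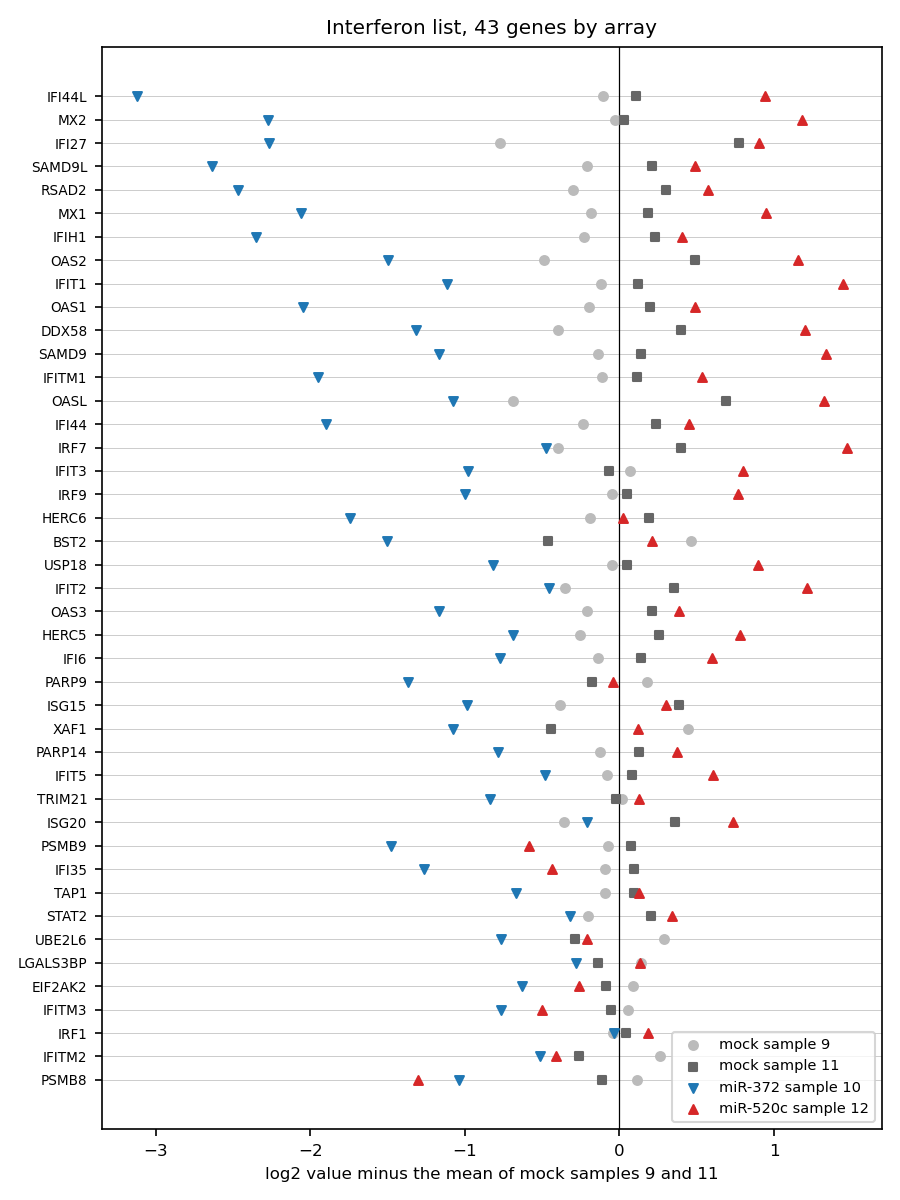
Each row is an interferon-list gene reported here, ordered by the difference between the miRNAs, and each symbol is its log2 value on an array minus the mean of the mock arrays, averaged over the gene's probes. The miR-372 symbols lie left of the mock symbols for most genes, while the miR-520c symbols lie at least 0.5 right of them for 15 genes, at least 0.5 left for 2 and closer to them for the others.

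IFI44L, an interferon-stimulated gene whose protein restricts viruses, had the largest difference on the list. Its probe, at chr1:78880178-78880237 of hg18, read 8.50 and 8.72 on mock samples 9 and 11, 5.49 under miR-372 and 9.55 under miR-520c. The mock arrays thus lay close together, with miR-372 far below and miR-520c above them. The difference between the miRNAs was 4.06, or 16.6-fold, with an SE of 0.27 in the limma fit, whose only residual degree of freedom lies between the mock arrays, and an adjusted p of 0.275. MX1, a dynamin-like GTPase that blocks influenza viruses, read 13.60 and 13.97 in mock, 11.72 under miR-372 and 14.73 under miR-520c, an 8.05-fold difference. Its probe lies at chr21:41752884-41752943. Both probes of its paralog MX2 differed, by 3.11 and 3.79.

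IFIH1, which encodes the double-stranded RNA sensor MDA5, read 9.58 and 10.04 in mock, 7.46 under miR-372 and 10.21 under miR-520c. DDX58, which encodes RIG-I and is now named RIGI, read 10.37 and 11.17 in mock, 9.46 under miR-372 and 11.97 under miR-520c, so the mock arrays themselves lay 0.79 apart. EIF2AK2, the kinase PKR, which stops translation on binding double-stranded RNA, differed by only 0.36 between the miRNAs and lay below both mock arrays under both, with miR-372 at -0.63 and miR-520c at -0.26 from the mean of the mock arrays. The oligoadenylate synthetases, which activate RNase L on the same ligand, differed by 2.53 for OAS1, 2.65 for OAS2 and 1.55 for OAS3. Of these, OAS2 was also 0.98 higher in mock sample 11.

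The transcription factors that carry the interferon signal differed less evenly. IRF9, the DNA-binding subunit of the interferon-activated factor, read 6.13 and 6.24 in mock, 5.18 under miR-372 and 6.95 under miR-520c. IRF7, which amplifies interferon production, read 9.12 and 9.91 in mock, 9.03 under miR-372 and 10.98 under miR-520c. For IRF9 both miRNAs left the mock range by at least 0.5, whereas for IRF7 only miR-520c did so by that margin. STAT2 differed by 0.66. IRF1, an early interferon-gamma target, differed by 0.23, with all 4 arrays between 7.80 and 8.03.

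Among the antiviral effectors, IFIT1, which binds viral RNA that lacks a host-type cap, read 13.30 and 13.53 in mock, 12.30 under miR-372 and 14.86 under miR-520c. IFIT3, its partner, read 8.83 and 8.70 in mock, 7.79 under miR-372 and 9.56 under miR-520c. For both genes the mock arrays lay between the miRNAs. RSAD2, or viperin, an enzyme that makes a chain-terminating nucleotide, differed by 3.04, with the 2.47 below the mock mean under miR-372 making up most of it and 0.57 above it under miR-520c. SAMD9L and SAMD9, neighbouring genes of antiviral translation inhibitors, differed by 3.13 and by 2.50, the latter over 4 probes from 1.81 to 3.35. BST2, or tetherin, which holds budding virions at the cell surface, differed by 1.71, while it was 0.92 lower in mock sample 11 than in mock sample 9.

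The ubiquitin-like modifier and its machinery were also higher under miR-520c. ISG15, the modifier itself, read 16.27 and 17.04 in mock, 15.66 under miR-372 and 16.95 under miR-520c, so miR-520c lay within the mock range. USP18, the protease that removes ISG15, differed by 1.71 with 0.09 between the mock arrays. HERC5, a ligase of ISG15, differed by 1.46, and UBE2L6, its conjugating enzyme, by 0.55.

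PSMB8, a subunit of the immunoproteasome, read 10.69 and 10.46 in mock, 9.53 under miR-372 and 9.27 under miR-520c. It was therefore below the mock arrays under both miRNAs, and it was the only measured list gene with a lower value under miR-520c than under miR-372, with a difference of -0.26. PSMB9, the neighbouring subunit, read 10.26 and 10.40 in mock, 8.85 under miR-372 and 9.74 under miR-520c, below mock under both. TAP1, which carries peptides to class I molecules, stood at -0.67 under miR-372 and 0.13 under miR-520c from the mock mean. IFITM2 and IFITM3, transmembrane proteins that block viral entry, differed by 0.10 and 0.27, whereas IFITM1 differed by 2.48. These paralogs are similar enough in sequence that their probes may not fully tell them apart.

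Ligands and receptors lay near the detection limit, and their scanner signals were used, as the normalized table does not hold them. IFNB1, interferon beta, was well above background on mock sample 11 and under miR-520c, and not well above background on mock sample 9 and under miR-372. It was at least 7.37-fold higher under miR-520c than under miR-372, by a bound that sets the dim array at the lowest signal well above background. CXCL11, a chemokine that interferon induces, was at least 5.55-fold higher by its brighter probe, with both mock arrays well above background. Its other probe was well above background on mock sample 11 alone and gives no fold. CCL5 was at least 4.06-fold higher, with mock sample 9 dim. TLR3 was at least 2.79-fold higher, and TRIM22, an antiviral ligase, at least 2.48-fold by one probe and 2.31-fold by the other. For TLR3 and TRIM22 miR-372 was the only array below detection. DHX58, a regulatory relative of RIG-I, was well above background on mock sample 9 alone, and CXCL10 on 0 arrays, so they give no fold.

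Promoters of this list are shown because its members differed together. The letters GAAANNGAAA, on either strand, the core of the interferon-stimulated response element, were searched from 250 bases before to 50 after each RefSeq gene start. They occurred in 24 of 40 list promoters (60.0%) and in 1255 of all 35116 promoters (3.57%). Among genes at least 1 higher under miR-520c, 16 of 24 promoters (66.7%) held them, and 6 of 12 among the other measured genes. The list was made of interferon-stimulated genes, so its share of 60.0% follows from the choice of list and is not a result of these arrays. The windows below lie upstream of the start and belong to the genes of the list with the largest differences that hold the letters there and differed by under 0.5 between the mock arrays. They are written on the strand of the gene, in GRCh38.p14, with each match in capitals.
IFI44L, chr1:78620355-78620404, plus strand: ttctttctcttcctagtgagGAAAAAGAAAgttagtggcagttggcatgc
IFIH1, chr2:162318685-162318725, minus strand: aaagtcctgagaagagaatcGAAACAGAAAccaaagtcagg
IFIT1, chr10:89392500-89392549, plus strand: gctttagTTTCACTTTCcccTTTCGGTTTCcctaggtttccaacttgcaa
SAMD9, chr7:93118086-93118135, minus strand: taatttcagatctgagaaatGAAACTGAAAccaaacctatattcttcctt
A match describes the sequence and is not a measured site. SAMD9L, RSAD2, OAS1 and IRF9, which also differed by more than 1, were among the genes with no match in this window.

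A second miR-372 array, sample 4 of set 1, was not used for the separation. Against mock sample 1 of its own set, it had a median of -0.81 over 43 list genes, with 36 at least 0.5 lower and 0 at least 0.5 higher. IFI44L stood at -4.10 there, MX1 at -1.80 and IFIH1 at -2.39, beside -3.12, -2.06 and -2.35 for sample 10 against its mock arrays. Sample 4 had 88.1% of its probes well above background, against 68.6% to 72.9% in set 3, and 22.4% of all probes were at least 0.5 lower on it than on mock sample 1. With this array in place of sample 10, the median difference between the miRNAs over the list was 1.28. Of the 58 probes of the miRNAs-only class that were higher under miR-520c and had miR-372 below mock, 49 had a value in set 1, and 37 of those (75.5%) were at least 0.5 lower on sample 4. For the 20 probes of that class that were lower under miR-520c and had miR-372 above mock, the second array did not repeat the placement, since 1 of 9 was at least 0.5 higher on it and 6 were at least 0.5 lower.

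Other arrays of the series, each set against the mock array of its own set, give the scale of the interferon shift. The median over 43 list genes was -0.80 under miR-373 and -0.44 under miR-302a, both of which have the shared seed, and 0.24 under miR-520f. dsEcad640, an siRNA with the shared seed, gave 0.00 to 2 decimals, with 0 genes past 1 in either direction. Against mock sample 9 and mock sample 11 singly, the median over 44 genes was -0.98 and -1.05 under miR-372, and 0.68 and 0.28 under miR-520c. The value under miR-372 was thus nearly the same with either mock array, while that under miR-520c was smaller beside mock sample 11.

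Of the 10 genes named as highest among those that differed between the miRNAs only, 6 were on the interferon list. Another 2, RTP4 and GBP5, are known as interferon-inducible genes but were not on it. RTP4, a chaperone of receptors, read 8.11 and 8.08 in mock, 5.57 under miR-372 and 8.60 under miR-520c. GBP5, a guanylate-binding protein, read 6.75 and 7.19 in mock, 4.61 under miR-372 and 7.28 under miR-520c. For both, miR-372 stood apart and miR-520c lay close to the mock arrays.

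WT1-AS, of the same group, stood farthest from mock on the miR-520c array instead. WT1-AS, the antisense transcript of the Wilms tumour gene, for which the array holds a probe named WIT1, read 5.18 and 5.19 in mock, 5.90 under miR-372 and 8.92 under miR-520c. WT1-AS was thus above mock under both miRNAs. It has 1 probe, its limma adjusted p was 0.275, and its difference was 2.16 after normexp and quantile normalization, against 3.01 here.

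Genes lower under miR-520c formed a more mixed group, with smaller differences. TMEM50B, a membrane protein of the secretory pathway, read 11.53 and 11.19 in mock, 10.28 under miR-372 and 8.52 under miR-520c. It was below mock under both miRNAs and lower still under miR-520c, while its other probe differed by -0.38. ZEB1, the zinc-finger repressor of E-cadherin, read 6.33 and 6.06 in mock, 5.77 under miR-372 and 4.29 under miR-520c. Its difference of -1.48 between the miRNAs came mainly from the miR-520c array, at -1.91 from the mock mean against -0.43 under miR-372. It was -0.63 after normexp and quantile normalization, and -0.79 with miR-372 sample 4 in place of sample 10.

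LMOD1, an actin-binding leiomodin, PTGER4, a prostaglandin E2 receptor, CEP89, a centrosomal protein, and FBXL17, an F-box protein, likewise had miR-520c, and not miR-372, at least 0.5 below both mock arrays. LMOD1 read 6.07 and 5.93 in mock, 6.06 under miR-372 and 4.29 under miR-520c, and FBXL17 read 7.45, 7.06, 6.99 and 5.10 in the same order. For FBXL17 and PTGER4, however, another probe differed by 0.74 and 0.22 in the opposite direction. ARSD, an arylsulfatase, CMTM3, a membrane protein with a MARVEL domain, and CCDC82 had miR-372 above mock, at 5.60, 7.03 and 5.85. CMTM3 also had miR-520c below mock, at 5.25, with 6.28 and 6.07 in mock. The other probes differed by 0.04 for ARSD, by -0.01 for CMTM3, and by -0.49 and 0.09 for CCDC82, so these differences rest on single probes. With miR-372 sample 4 and its own mock array in place of sample 10, the difference turned to 1.20 for FBXL17, 0.70 for CMTM3 and 1.58 for CCDC82. After normexp and quantile normalization, LMOD1, which has 1 probe, PTGER4, CEP89 and FBXL17 differed by -0.68, -0.40, -0.92 and -0.94. ARSD, CMTM3 and CCDC82 then differed by -0.54, -1.05 and -0.62, so these differences were smaller with that processing.

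**Figure D3:**
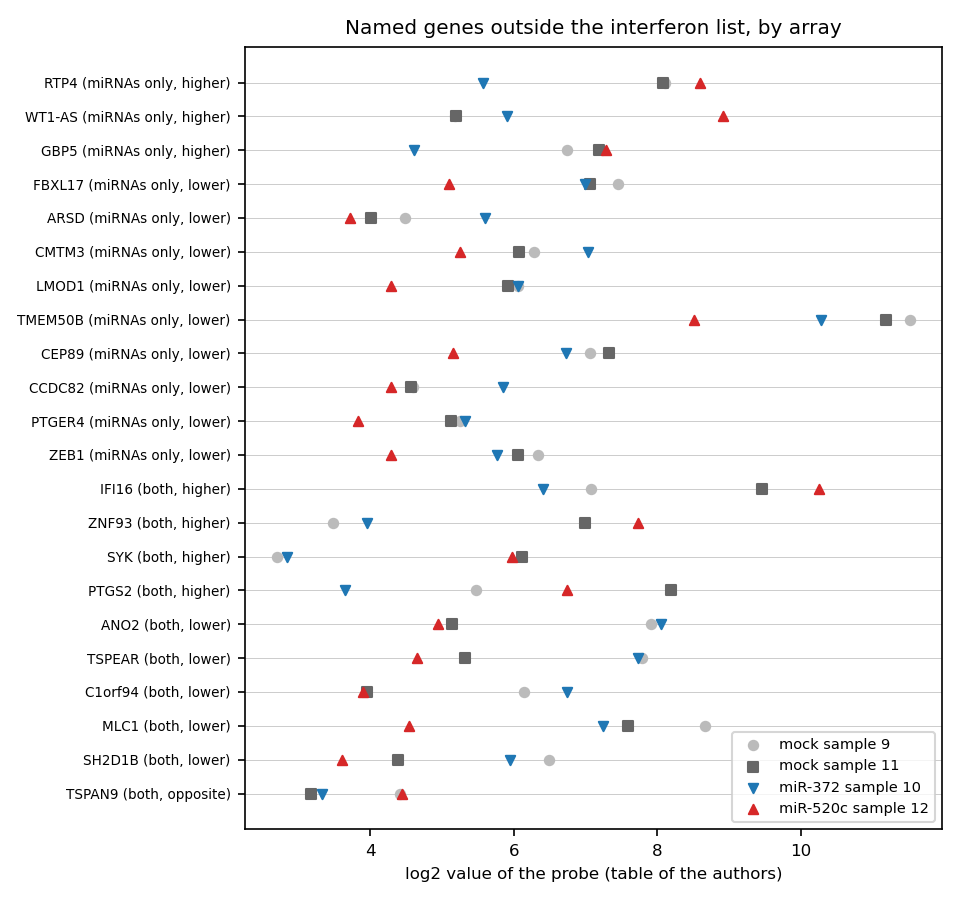
Each row is a gene named here from outside the interferon list with its class in parentheses, and each symbol is the log2 value of its probe on an array. In the upper rows a miRNA array stands apart from a close pair of mock symbols, and in most rows of genes that differ in both comparisons mock sample 11 pairs with miR-520c and mock sample 9 with miR-372.

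The 250 probes that differed in both comparisons were led by genes whose values split the slide by neighbouring samples. ZNF93, a zinc-finger repressor of retrotransposons, read 3.49 on mock sample 9 and 3.96 under miR-372, against 7.00 on mock sample 11 and 7.74 under miR-520c. ANO2, a calcium-activated chloride channel, read 7.91 and 8.06 against 5.14 and 4.94 in the same order. TSPEAR read 7.79 and 7.73 against 5.32 and 4.65, and C1orf94 read 6.14 and 6.74 against 3.96 and 3.90. In each of them a miRNA array lay nearer to its neighbouring mock array than the mock arrays lay to each other. SYK, a kinase of immune receptor signalling, was well above background on mock sample 11 and under miR-520c only, at least 9.81-fold over mock sample 9 and at least 7.93-fold over miR-372.

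IFI16 and IFI27 were interferon-inducible genes of this class. IFI16, a DNA sensor, read 7.08 on mock sample 9, 9.46 on mock sample 11, 6.41 under miR-372 and 10.26 under miR-520c. It differed by 2.38 between the mock arrays, and each miRNA lay outside them by more than 0.5. IFI27 differed by 3.17 between the miRNAs and by 1.55 between the mock arrays, and OASL, a relative of the synthetases, by 2.40 and 1.38. TSPAN9, with 4.41 and 3.18 in mock, 3.33 under miR-372 and 4.44 under miR-520c, was the named gene whose differences had opposite signs, with its 3 probes between -0.02 and 1.11 for the miRNAs.

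The inflammatory genes of the NF-kappaB pathway belonged to the differences that the mock arrays shared. Of 31 genes with values, 8 were at least 1 higher and 1 at least 1 lower under miR-520c, where 1.76% and 1.14% of all genes were so, with a median difference of 0.50. Between the mock arrays 11 were at least 1 higher and 0 lower, where 1.11% and 0.864% of all genes were so, with a median of 0.81, so the shift was larger without any change of duplex. All 8 genes were also at least 1 higher in mock sample 11, and 0 genes of the list differed between the miRNAs only. IL6, the interleukin, read 7.68 and 9.79 in mock, 6.52 under miR-372 and 8.48 under miR-520c. CCL2, a monocyte chemokine, read 3.50 and 6.92 in mock, 3.14 under miR-372 and 5.28 under miR-520c. CSF2, a growth factor of myeloid cells, read 6.42 and 8.81 in mock, 6.51 under miR-372 and 8.34 under miR-520c. PTGS2, the inducible cyclooxygenase, differed by 2.65 between the miRNAs and by 2.57 between the mock arrays.

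Some members departed from that order. IL8, now named CXCL8, read 8.72 and 11.26 in mock, 6.42 under miR-372 and 7.93 under miR-520c, below both mock arrays under both miRNAs. SERPINB2, an inhibitor of plasminogen activators, read 7.91 and 8.07 in mock, 9.91 under miR-372 and 10.43 under miR-520c. PTX3, a soluble pattern receptor, read 13.25 and 13.50 in mock, 14.33 under miR-372 and 14.16 under miR-520c. The miRNAs thus differed by 0.52 and -0.17 for these genes, while both lay above mock.

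Messages with sites for the shared seed had medians below mock under both miRNAs, with the lower one under miR-520c. A list of 51 measured targets taken from the literature had a median of -0.24 under miR-372 and -0.42 under miR-520c against the mock mean. miR-372 was at least 0.5 below both mock arrays for 16 of them and miR-520c for 22, where 3.43% and 9.4% of all genes were so. The median difference between the miRNAs was -0.18, against 0.00 between the mock arrays and -0.01 over all genes, and it was 0.02 with miR-372 sample 4 in place of sample 10. On the slide itself 36 genes were lower and 15 higher under miR-520c, where 6597 of all 13546 genes were higher. Past 1, there was 1 gene in each direction, ZEB1 lower and CDK6, a cell cycle kinase, higher. Of all genes 1.14% were lower and 1.76% higher past 1, so these counts are close to the background.

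DAZAP2, a signalling adaptor, read 12.54 and 12.63 in mock, 10.76 under miR-372 and 10.44 under miR-520c. TGFBR2, the type II TGF-beta receptor, read 9.76 and 9.71 in mock, 8.30 under miR-372 and 8.12 under miR-520c. For these and for LATS2, a Hippo kinase, the miRNAs lay within 0.32 of each other and more than 1 below mock. The gap was wider for RAB22A, an endosomal GTPase, with 9.77 and 9.60 in mock, 8.73 under miR-372 and 7.85 under miR-520c. BTG1, an antiproliferative factor, CDK2, the S phase kinase, KDM1B, a histone demethylase, MBD2, a reader of methylated DNA, and NFIB, a transcription factor, differed by -0.76, -0.62, -0.59, -0.52 and -0.52, though BTG1 also differed by -0.60 between the mock arrays. CDK6 read 8.78 and 9.14 in mock, 9.17 under miR-372 and 10.26 under miR-520c, and only miR-520c was above both mock arrays by at least 0.5. ZNFX1 and MAP3K14, the kinase NIK, were higher under miR-520c by 0.76 and 0.68, and in mock sample 11 by 0.43 and 0.93.

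**Figure D4:**
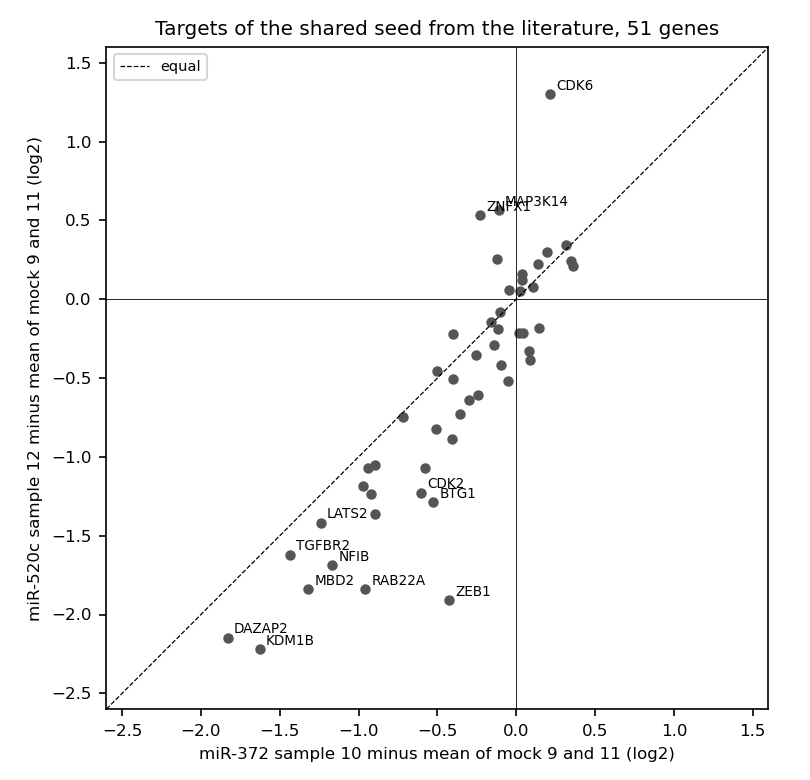
Each point is 1 of 51 genes from the literature with a site for the shared seed, with its log2 value under miR-372 (horizontal) and under miR-520c (vertical) minus the mean of the mock arrays; the dashed line marks equal values. Most genes below 0 lie under the line, DAZAP2, LATS2 and TGFBR2 lie close to it, and ZEB1 and CDK6 lie farthest from it.

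A longer list comes from the study, which chose probes with the shared seed site partly for being lower on these same arrays, so its direction is not independent evidence. Its 323 decreased probes had a median of -0.34 under miR-372 and -0.63 under miR-520c. Of them, 253 were lower under miR-520c than under miR-372, as were 13621 of all 27191 probes. Over the 323 probes the median difference between the miRNAs was -0.24, against -0.07 between the mock arrays. In 7 probes it was at least 1 lower and in 2 at least 1 higher, where 1.41% and 1.7% of all probes were so. Counts this small do not show whether the list departs from that background. For the 53 probes with more than 1 site the medians were -0.54 and -0.76. The 114 increased probes had medians of 0.29 and 0.40.

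Genes that the study named in its measurements of repressors and targets behaved in different ways. CDH1, which encodes E-cadherin, read 6.64 and 5.95 in mock, 7.31 under miR-372 and 7.20 under miR-520c, above mock under both. It differed by -0.70 between the mock arrays. On the second miR-372 array, sample 4, CDH1 stood at -1.30 from its own mock array, in the opposite direction. The study states that its arrays at 24 h did not show a rise of E-cadherin mRNA. ZEB2, the relative of ZEB1, read 7.03 and 7.01 in mock, 5.68 under miR-372 and 5.82 under miR-520c, so that it did not differ between the miRNAs as ZEB1 did. The study itself could not detect ZEB2 by qRT-PCR in PC-3 and proposes a very low level as the probable reason. MTPN, myotrophin, was lower under miR-520c by 0.66, and MED8, a Mediator subunit, by 0.08, with both below mock under miR-520c. RAB31, an endosomal GTPase, differed by 1.33 between the miRNAs but by 1.63 between the mock arrays. SNAI1, SNAI2 and TCF3, repressors at E-boxes, differed by 0.74, 0.07 and 0.04, and SNAI1 also by 0.65 between the mock arrays. GAPDH, HINT1 and PLEKHC1 differed by -0.01, 0.04 and 0.31.

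Lists of other pathways had median differences between -0.30 and 0.23 for cholesterol and fatty acid synthesis, ATF4 and endoplasmic reticulum stress, heat shock, metallothioneins, hypoxia, immediate early genes, YAP and TGF-beta targets, epithelial and mesenchymal genes, S phase, G2/M, p53 targets, autophagy, ERBB signalling, NKG2D ligands, small RNA machinery and histones. Of the TGF-beta targets, 5 of 29 were at least 1 higher and 0 lower, where 1.76% and 1.14% of all genes were so, among them BAMBI, a pseudoreceptor, PMEPA1, a feedback inhibitor, and TGFBI, a matrix protein, which were also 1.36, 1.53 and 1.07 higher in mock sample 11. ATF3 and GDF15, stress-response genes, were 1.68 and 1.28 higher under miR-520c, and 2.20 and 1.33 higher in mock sample 11. SPARC, a matrix glycoprotein, stood at -1.56 between the miRNAs and -2.30 between the mock arrays. MCM7, a subunit of the replicative helicase, was an exception with 15.64 and 15.62 in mock, 15.51 under miR-372 and 14.22 under miR-520c, the only S phase gene of 41 past 1.

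**Figure D5:**
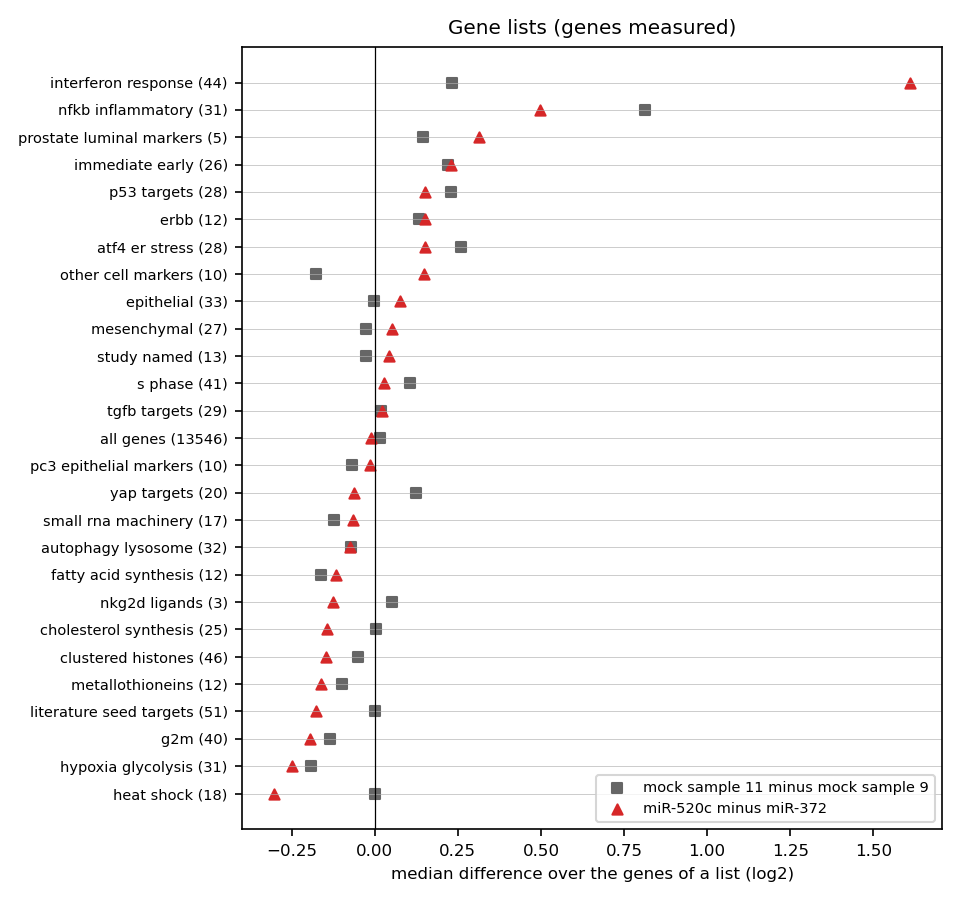
Each row is a gene list with the number of genes measured, and the symbols are the medians of the miRNA difference (triangles) and of the mock difference (squares) on the log2 scale. In the plot the interferon list stands at 1.61 for the miRNAs and 0.23 for the mock arrays, the NF-kappaB list is further right for the mock arrays, and the others lie between -0.30 and 0.31 for the miRNAs.

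The label of the cells was checked against marker genes. All 10 epithelial markers of PC-3, among them KRT8, KRT18 and EPCAM, were well above background on all 4 arrays. Of 9 basal and luminal prostate markers, 5 had values in the table, among them KLK2, KLK3 and TMPRSS2, which were well above background on all 4 arrays, although PC-3 is known for little or no KLK3. FOLH1 was well above background on 3 arrays by 1 of its probes, KLK4 on 2, and TP63 and ACPP on 0. Of the 16 markers of blood, vessel, stromal, liver and nerve cells, 10 had values, with a median difference of 0.15 and a range from -0.70 to 1.12. PTPRC, the common leukocyte antigen, was well above background on 0 arrays. COL1A1, a fibrillar collagen, was 1.12 higher under miR-520c and 0.61 higher in mock sample 11, and the part of such cells in the results was not tested.

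The limma test, with a mean per condition over the 4 arrays, called 0 of 27191 probes (0%) at an adjusted p of 0.05, while 1535 had an unadjusted p under 0.05. Its smallest adjusted p was 0.275, and it assumes that each miRNA array varies like the mock arrays do. An unadjusted limit of 0.05 passes about 0.05 of all probes where nothing differs. The fit over all 11 arrays, with the set as a block, used scanner signals scaled to the 75th percentile and not the table values. It called 0 of 27078 probes, with 1329 at an unadjusted p under 0.05. Without miR-372 sample 10 that fit called 1970 probes, 246 higher and 1724 lower, and it then rests on miR-372 sample 4 of another slide.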

How the data were processed

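The deposited table holds the log2 values the authors obtained by normalizing Agilent 4x44K arrays, with the method not given in the sources used here. The deposited scanner files hold each probe's intensity and a 0 or 1 mark for standing well above background, from Agilent Feature Extraction 10.5.1.1 per the file headers. Coordinates are those of the files (hg18), and 20334 of 27191 probes carried a gene symbol.

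The miRNA difference is miR-520c sample 12 minus miR-372 sample 10, and the mock difference is sample 11 minus sample 9, for probes that passed the background mark on 1 or more of these 4 arrays. Spots numbered 43376 an array, none saturated. Gene values are means over a gene's probes. limma 3.58.1 in R 4.3.3 fitted a mean per condition, with Benjamini-Hochberg adjustment at 0.05, and was tested on simulated data. Its p-values rest on the spread of 2 mock arrays, which may be technical, and the number of mock arrays limits the precision. limma also drew each probe's spread toward a value common to all probes, with 4.29 prior against 1 residual degrees of freedom.

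Named genes were the 10 highest and 10 lowest that differ between the miRNAs only, the 5 highest and 5 lowest that differ in both, those of opposite sign, up to 4 genes a list past the fold, the genes the study named, literature targets past 0.5, and list members needed to show a count. Several list members were named for their role beyond that rule, after their values were seen. A few genes that the rule names are not reported here, though counts include them. Members and lists were chosen with earlier results of these data known. Alternatives for the values were scanner signals scaled to the 75th percentile and normexp (offset 50) with quantile normalization. Further ones were other filters, folds and mock limits, gene means, subtraction of the mock difference and miR-372 sample 4. limma-trend was also fitted, as were the scaled scanner signals of all 11 arrays with the set as a block. Chosen after seeing the data were the medians of other arrays and the bounds for dim genes. A bound compares the brighter array with the higher of the dim probe's signal and the lowest signal well above background on that array. Values were computed with Python 3.11.15, numpy 2.4.6 and pandas 2.3.3.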

Additional observations from a re-analysis of the deposited data

Results flagged for a closer look

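For 6 of the genes named for the largest differences of their class, miR-520c and miR-372 lay at least 0.5 outside the mock arrays of the slide on opposite sides, and the difference was not tested beyond the limma fit, which called none of them. The difference between the miRNAs was 4.06 for IFI44L, 3.79 for MX2 by its more distant probe, 3.35 for SAMD9, 3.01 for MX1 and 3.85 for IFI16, with miR-520c above. It was -1.79 for CMTM3, with miR-372 above. Among the 44 measured genes of the interferon list, 10 had miR-520c above and miR-372 below both mock arrays by that margin, namely IFI44L, MX1, MX2 and SAMD9 again, and DDX58, IFIT1, IFIT3, IRF9, OAS2 and USP18.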

How the results depend on the processing

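Counts of probes depended on the values and limits used. They follow in the order higher and lower under miR-520c, higher and lower in mock sample 11, miRNAs only higher and lower, both the same and both opposite. Scanner signals relative to the 75th percentile gave 1040, 944, 712, 803, 441, 382, 525 and 72, and normexp with quantile normalization gave 238, 108, 107, 101, 110, 31, 98 and 0. A fold of 0.5 gave 2613, 2823, 1797, 2119, 1662, 1781, 1905 and 88, and a fold of 1.5 gave 156, 54, 84, 73, 60, 13, 60 and 0. Gene means gave 238, 154, 151, 117, 83, 43, 149 and 0. A mock limit of 0.25 left 82 higher and 50 lower in the miRNAs-only class. The filters kept every count within 1.5 times. They left the same 27191 probes or 27181 of them, so this says nothing about stability. The interferon median, 1.61, was 1.15 after normexp and quantile normalization over the list genes measured there, 1.15 less the mock difference and 1.28 with miR-372 sample 4. The median over the study's decreased seed-site probes, -0.24, was -0.17 and -0.19 under the latter settings. FBXL17, CMTM3 and CCDC82 turned to 1.20, 0.70 and 1.58 with miR-372 sample 4, and the cause was not tested. SYK came to -0.27 less the mock difference, but both of its differences are bounds, so this value gives no direction. Of the 31 named genes, 21 moved by more than a mock spread after normexp and quantile normalization and 0 turned. That spread was the SD of the gene's 2 mock values or, where this was smaller, a common floor of 0.27.

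The limma fit of the 4 arrays called 0 probes, as did limma-trend, both scanner normalizations and the filters, which removed few or no probes. The fit of all 11 arrays used the scaled scanner signals. With all 11 arrays and the set as a block, leaving out 1 array gave 0 to 1970 calls, namely 1970 without miR-372 sample 10, 2 without mock sample 1, 2 without miR-372 sample 4 and 0 without mock sample 8, 9 or 11. In the 4-array fit, leaving out a mock array leaves no residual degree of freedom. The groups share no sample numbers, so no replicate block was fitted. Subtracting the mock difference is the same as pairing neighbouring samples, which the labels do not state to be pairs. The median over all probes moved by less than 0.1 under every scaling. Genes that were not well above background have only bounds.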
